A study of Mus musculus with 15 samples.

Results

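Cd68, Csf1r, Adgre1, Mrc1, Lyz2, Cd14, Itgam, C1qa, C1qb and C1qc are genes that monocytes and macrophages use, and they were examined here in the femurs of mice that did or did not fly on the International Space Station and that did or did not have a segmental bone defect. The 10 genes were taken as a fixed list of symbols, and every probe whose RefSeq accession on the array carried one of these symbols was kept. This gave 15 probes for the 10 genes, out of 21154 genes with a symbol (28026 probes) and 55681 probes in all. Csf1r and Itgam each had 3 probes, Adgre1 had 2, and the other 7 genes had 1 probe each. Probes of one gene share their target and were not treated as replicates.

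The arrays came from male C57BL/6J mice labelled as 9 weeks old, an age that precedes tissue collection by the study's methods. In the surgery groups a segment of the femur was removed and the gap was filled with a poly(propylene fumarate)/tricalcium phosphate scaffold. A collagen sponge soaked in saline was added, the femur was held by a pin, and the callus around the gap was collected. In the sham groups the mice were not operated, and the matching stretch of the femoral shaft was taken. Flight mice lived in the habitat on the station and ground mice in the same hardware on Earth, which gave 4 groups, the unoperated G-Sham and FLT-Sham mice (n = 4 each), the operated G-Surgery mice on the ground (n = 4) and the operated FLT-Surgery mice in flight (n = 3). All scaffold material, sponge and pin were shared by both surgery groups and absent from both sham groups, so the operation and the implanted materials cannot be told apart. Each of the 15 arrays carried RNA of 1 mouse in Cy5 against a common reference RNA pooled from mouse cell lines in Cy3, with no dye swap. A log2 ratio below therefore means the bone sample over that reference, and it can be compared between groups for 1 probe but not between genes. In whole tissue, fewer macrophages and less RNA of a gene in each macrophage cannot be told apart.

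Monocytes leave the marrow, enter injured tissue and become macrophages, which clear debris and dying cells and release signals to the cells that rebuild bone. CSF1 acting through its receptor, the Csf1r product, keeps this lineage alive, and in bone it also feeds the formation of osteoclasts. C1q, built from the chains that C1qa, C1qb and C1qc encode, starts the classical complement pathway and tags dying cells for uptake, and it is made mainly by tissue macrophages rather than by liver.

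PU.1, the transcription factor of the myeloid lineage, binds sequences with the core letters GAGGAA. The 250 bases upstream of the transcript start in the RefSeq table are shown for Cd68, for its steady signal on all arrays, and for C1qb and C1qc, which lie next to each other and next to C1qa but gave different patterns on the arrays. The sequences are from RefSeq on GRCm38.p6, written 5′ to 3′ on the strand of the gene, and capitals mark GAGGAA or its reverse complement TTCCTC, searched on both strands.
Cd68, chr11:69666171-69666420, minus strand: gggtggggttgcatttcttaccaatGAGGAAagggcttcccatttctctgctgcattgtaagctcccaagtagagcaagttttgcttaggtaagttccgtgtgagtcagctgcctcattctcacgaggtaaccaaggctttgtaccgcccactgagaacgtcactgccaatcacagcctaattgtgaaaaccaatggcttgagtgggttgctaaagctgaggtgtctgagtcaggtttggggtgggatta
C1qb, chr4:136886201-136886450, minus strand: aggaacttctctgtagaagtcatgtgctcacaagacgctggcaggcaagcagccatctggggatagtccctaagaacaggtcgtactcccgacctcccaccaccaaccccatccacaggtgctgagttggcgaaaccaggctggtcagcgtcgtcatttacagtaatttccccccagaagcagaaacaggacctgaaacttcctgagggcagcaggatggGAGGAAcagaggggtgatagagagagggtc
C1qc, chr4:136892915-136893164, minus strand: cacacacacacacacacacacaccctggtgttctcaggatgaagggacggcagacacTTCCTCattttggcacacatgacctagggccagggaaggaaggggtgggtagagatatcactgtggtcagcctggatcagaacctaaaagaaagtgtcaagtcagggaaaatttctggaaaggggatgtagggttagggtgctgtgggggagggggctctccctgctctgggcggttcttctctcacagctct

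The motif began 225 bases before the start of Cd68 and 30 bases before that of C1qb on the strand of the gene, and 193 bases before that of C1qc on the opposite strand. Of the 6 genes whose windows were counted here, 5 held it (Cd68, Mrc1, Itgam, C1qb and C1qc) and Lyz2 did not, while 23.3% of 32851 windows of this length held it. The start used for C1qc lies inside the annotated span of the gene, so the 3′ end of its window overlaps that span. In the same build the 3 C1q genes lie on chromosome 4, C1qb at 136880126 to 136886200, C1qc at 136889801 to 136892936 and C1qa at 136895916 to 136898844. Cd68 spans chromosome 11 from 69664213 to 69666170, Itgam chromosome 7 from 128062640 to 128118491, Mrc1 chromosome 2 from 14229414 to 14332023, and Lyz2 chromosome 10 from 117277541 to 117282272. Adgre1 lies on chromosome 17 from 57358581 to 57483529, and Csf1r and Cd14 lie on chromosome 18, from 61105572 to 61131139 and from 36725064 to 36726815. C1qa and Adgre1 had no entry in the table of upstream windows, and Csf1r and Cd14 were left out of the count of windows above.

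The Cy5 signal was weak, and the study describes its RNA as of sub-optimal quality. The part of RNA quality in the signal and in the differences below was not tested. Between 22.4% and 38.5% of all probes were well above background in Cy5 on an array, and between 12493 and 21461 probes in number. The scanner software multiplied the background-subtracted Cy5 signal by 19.8 to 59.5 to balance the dyes, and pairwise correlations of arrays ranged from 0.555 to 0.87. The arrays lay on 3 slides. Slide 1 held G-Sham replicate 3, FLT-Sham replicate 4, G-Surgery replicates 1, 4 and 5 and FLT-Surgery replicates 3 and 5. Slide 2 held G-Sham replicates 1 and 5, FLT-Sham replicates 6, 8 and 9, G-Surgery replicate 3 and FLT-Surgery replicate 1, and G-Sham replicate 4 was alone on slide 3. Differences within slides 1 and 2 are given beside the main results.

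Cd68 was well above background on all 15 arrays, as were 2 of the 3 Csf1r probes (A_55_P2025073 and A_55_P2025078) and the brightest Itgam probe (A_55_P1977934). C1qb was above background on 14 arrays, Itgam A_55_P1977929 on 13, and Csf1r A_52_P602091, Cd14 and C1qc on 9 each. Adgre1 was above background on 5 arrays (A_55_P2018934) and 3 arrays (A_55_P2144386), Lyz2 on 5, and Mrc1, C1qa and Itgam A_55_P1977926 on 3. Of the genes that define macrophages, Cd68, Csf1r and C1qb were thus read on nearly all arrays, while Adgre1 (F4/80), the classical mouse macrophage marker, and Lyz2 were at or near background on most arrays.

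Detection of the 15 probes differed between groups. In G-Surgery 47 of 60 probe measurements were well above background (10 to 14 per array), against 28 of 60 in G-Sham (5 to 9 per array), 39 of 60 in FLT-Sham (7 to 11) and 22 of 45 in FLT-Surgery (6 to 9). Over all probes the ranges per array were 14309 to 20697 in G-Surgery, 12869 to 18300 in G-Sham, 14813 to 21461 in FLT-Sham and 12493 to 14260 in FLT-Surgery. The FLT-Surgery arrays therefore detected few of the macrophage probes and also few probes in general, and the part that general detection plays in the differences below was not tested.

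**Figure D1:**
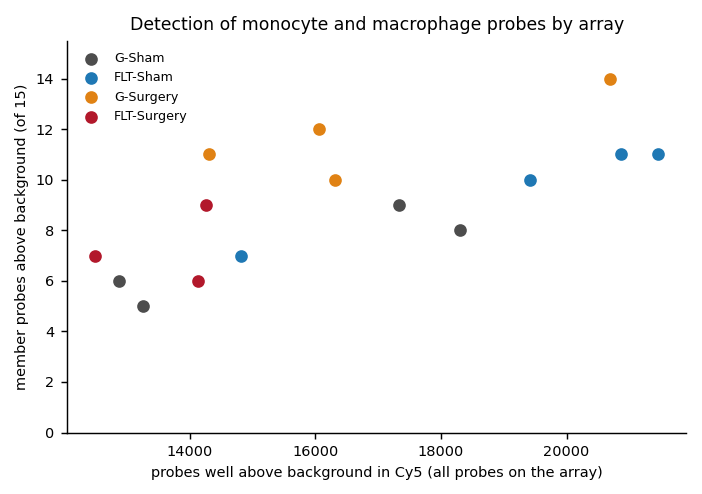
Number of the 15 macrophage-gene probes well above background in Cy5 on each array (vertical axis) against the number of all probes above background on that array (horizontal axis), coloured by group. The 4 G-Surgery arrays detected 10 to 14 of the 15 probes, and the 3 FLT-Surgery arrays detected 6 to 9 with at most 14260 probes detected in all.

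Cd68 encodes a glycoprotein of the lysosome and is widely used to stain macrophages. Its log2 ratios were −1.12, −0.87, −1.24 and −0.89 in G-Sham replicates 1, 3, 4 and 5 and −1.02, −1.11, −0.60 and −1.05 in FLT-Sham replicates 4, 6, 8 and 9. They were −0.19, −0.22, −0.49 and −0.50 in G-Surgery replicates 1, 3, 4 and 5 and 0.07, −0.47 and −0.52 in FLT-Surgery replicates 1, 3 and 5. All 7 surgery arrays thus lay above all 8 sham arrays, the nearest being −0.52 and −0.60, while flight and ground arrays overlapped within sham and within surgery. In order of the mean log2 ratio ± SD the groups were FLT-Surgery (−0.31 ± 0.33), G-Surgery (−0.35 ± 0.17), FLT-Sham (−0.95 ± 0.23) and G-Sham (−1.03 ± 0.18), and the first 2 and the last 2 in this order did not differ beyond their spread. The mean processed Cy5 signal was 4402 ± 443 in G-Sham, 7010 ± 242 in FLT-Sham, 8314 ± 815 in G-Surgery (SD, n = 4 each) and 7636 ± 1865 in FLT-Surgery (n = 3). In this signal all FLT-Sham arrays (6807 to 7361) lay above all G-Sham arrays (at most 4901). They overlapped the FLT-Surgery arrays (6242 to 9755), so the split between surgery and sham held for the ratio and not for the signal.

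The receptor genes of the CSF1 and lipopolysaccharide pathways showed the same order on the ground. Csf1r at the probe that represents it, A_55_P2025078, had log2 ratios of −0.45, 0.01, −0.24 and −0.31 in G-Sham and 0.62, 0.93, 0.45 and 0.28 in G-Surgery. FLT-Sham arrays read 0.18, −0.33, −0.05 and −0.35 and FLT-Surgery arrays 0.51, 0.36 and −0.14. The 4 G-Surgery values were the highest of the ground arrays without overlap, whereas FLT-Surgery replicate 5 fell among the sham arrays. The other Csf1r probes did not follow it. A_55_P2025073 averaged 3.21 ± 0.18 in G-Sham, 3.0 ± 1.15 in FLT-Sham, 3.05 ± 0.50 in G-Surgery and 3.78 ± 0.36 in FLT-Surgery, and over the 15 arrays it correlated with A_55_P2025078 at r = −0.136. A_52_P602091 averaged −0.15 ± 0.48, −0.23 ± 0.36, 0.15 ± 0.46 and −0.47 ± 0.70 in the same order, with overlap between all groups.

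Cd14, the co-receptor that hands lipopolysaccharide to the Toll-like receptor complex on monocytes, was far below the reference in every group. Its log2 ratios were −3.87, −3.18, −3.69 and −4.47 in G-Sham and −2.62, −2.26, −2.42 and −2.74 in G-Surgery. FLT-Sham arrays read −3.88, −4.17, −3.71 and −4.06 and FLT-Surgery arrays −2.64, −2.80 and −3.95. All G-Surgery values were above all G-Sham and FLT-Sham values, and FLT-Surgery was split, with replicates 1 and 3 close to G-Surgery and replicate 5 among the sham arrays. Cd14 was above background on all 4 G-Surgery arrays but on 1 of 4 G-Sham, 3 of 4 FLT-Sham and 1 of 3 FLT-Surgery arrays. Across the 15 arrays Cd14 and Csf1r A_55_P2025078 correlated at r = 0.906, Cd68 and Csf1r A_55_P2025078 at 0.83, and Cd68 and Cd14 at 0.771, all of them values that share arrays, dyes and the reference.

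**Figure D2:**
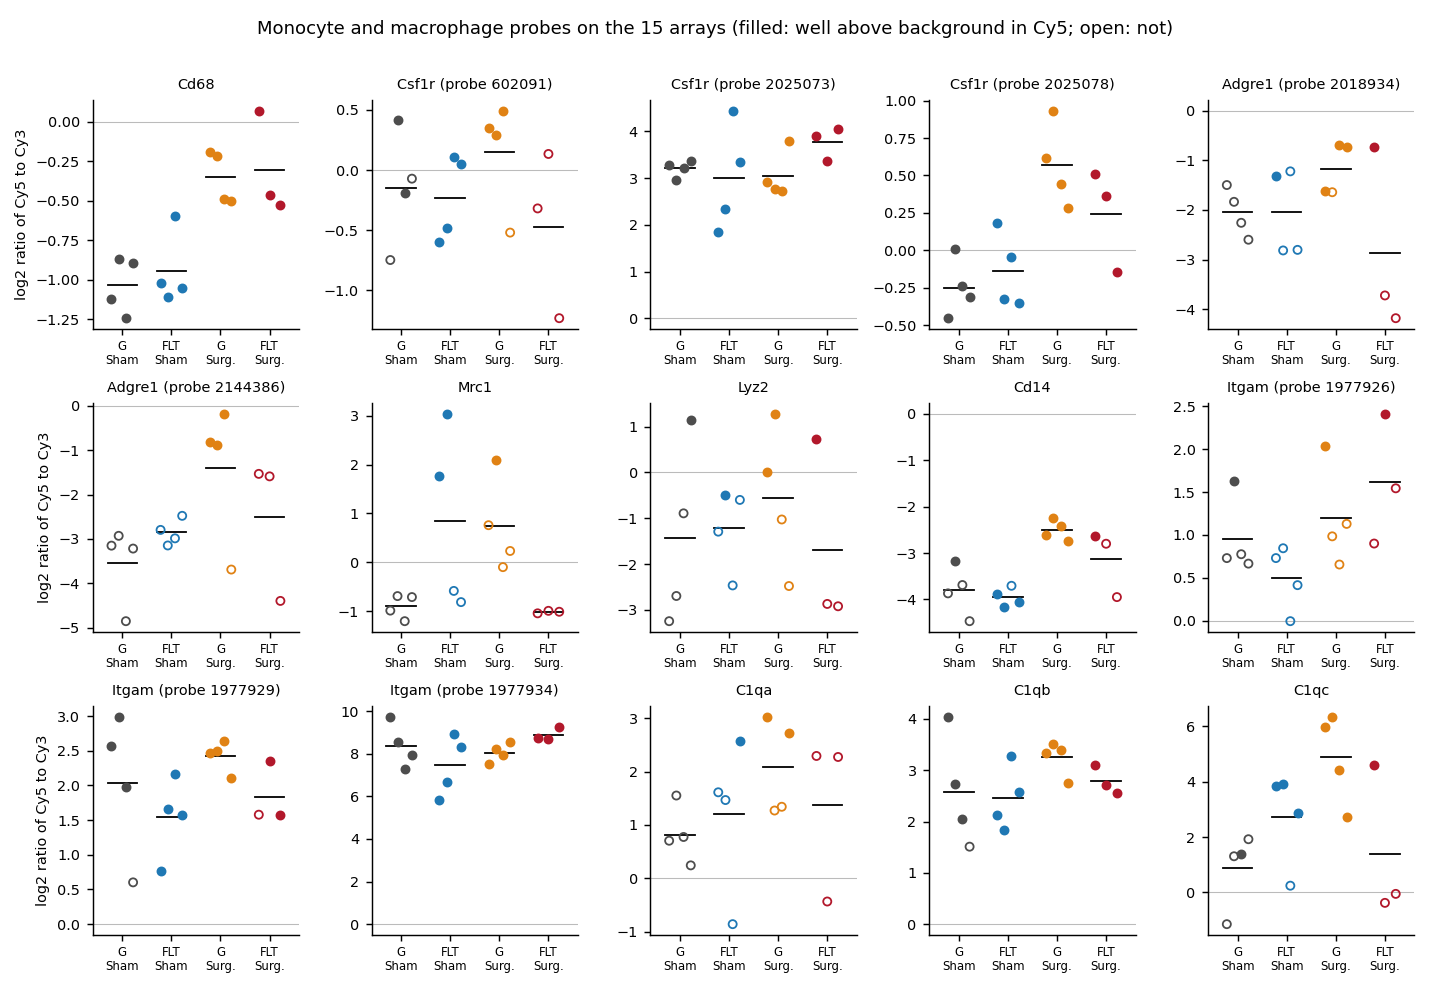
Log2 ratio of the bone sample over the reference for each of the 15 probes (panels) on each array, by group; filled points were well above background in Cy5, open points were not, and the line is the group mean. Cd68 is filled on all 15 arrays with the 7 surgery points above the 8 sham points, while Adgre1, Mrc1, Lyz2 and C1qa are mostly open.

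The surface receptors and granule enzyme gave less complete data. Adgre1 encodes F4/80, an adhesion receptor of mouse macrophages, and was above background on no G-Sham array. At A_55_P2144386 the log2 ratios were −0.82, −0.90, −0.18 and −3.69 in G-Surgery, against −3.15, −2.93, −4.85 and −3.22 in G-Sham. At A_55_P2018934 they were −1.62, −1.64, −0.70 and −0.74 in G-Surgery, against −1.50, −1.84, −2.26 and −2.60 in G-Sham. Thus 3 of 4 G-Surgery arrays were above G-Sham at the first probe and G-Surgery replicate 5 was not, although replicate 5 was among the higher arrays at the second. FLT-Surgery arrays read −1.53, −1.59 and −4.39 at the first probe and −0.72, −3.72 and −4.18 at the second, and FLT-Sham averaged −2.85 ± 0.29 and −2.04 ± 0.89.

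Mrc1 encodes the mannose receptor, a marker of resident and alternatively activated macrophages. It was above background on only 3 arrays, FLT-Sham replicate 4 (log2 ratio 1.76), FLT-Sham replicate 6 (3.04) and G-Surgery replicate 3 (2.10). All other values lay between −1.2 and 0.76, and the 3 FLT-Surgery values of −1.04, −0.99 and −1.01 were as low as those of G-Sham. Lyz2 encodes the lysozyme of macrophages and neutrophils, and its values ranged from −3.25 to 1.14 in G-Sham alone, so no group stood apart. The Lyz2 means were −1.42 ± 1.98 in G-Sham, −1.21 ± 0.91 in FLT-Sham, −0.55 ± 1.59 in G-Surgery and −1.69 ± 2.09 in FLT-Surgery.

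Itgam encodes CD11b, the integrin chain shared by monocytes, macrophages and neutrophils, and its 3 probes differed widely. A_55_P1977934 gave very high ratios, with group means of 8.36 ± 1.05 in G-Sham, 7.45 ± 1.44 in FLT-Sham, 8.05 ± 0.44 in G-Surgery and 8.89 ± 0.32 in FLT-Surgery. Its FLT-Surgery values of 8.74, 8.68 and 9.26 were all above the G-Surgery values of 7.49, 8.20, 7.95 and 8.55. In the same order of groups A_55_P1977929 averaged 2.03 ± 1.04, 1.54 ± 0.58, 2.43 ± 0.22 and 1.83 ± 0.45, and A_55_P1977926 averaged 0.95 ± 0.45, 0.50 ± 0.38, 1.2 ± 0.59 and 1.62 ± 0.76. The bright probe was also the one whose ratio moved most with detection, with r = −0.763 against the number of probes above background over the 15 arrays.

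The C1q genes, adjacent in the genome, were not read alike by the arrays. C1qc had log2 ratios of 5.99, 6.36, 4.44 and 2.72 in G-Surgery, against −1.15, 1.30, 1.39 and 1.92 in G-Sham. FLT-Sham arrays read 3.86, 3.92, 0.24 and 2.85, and FLT-Surgery arrays 4.62, −0.38 and −0.06. Every G-Surgery value was above every G-Sham value, FLT-Surgery replicate 1 lay within the range of G-Surgery, and FLT-Surgery replicates 3 and 5 lay within the range of G-Sham. The mean processed Cy5 signal of C1qc was 94.7 in G-Sham, 364 in FLT-Sham, 1522 in G-Surgery and 317 in FLT-Surgery. C1qc was above background on all 4 G-Surgery arrays but on 1 of 4 G-Sham, 3 of 4 FLT-Sham and 1 of 3 FLT-Surgery arrays. Its differences from G-Sham and FLT-Surgery thus rest mostly on values there that were not well above background. C1qb was more even, at 4.05, 2.74, 2.04 and 1.51 in G-Sham, 2.12, 1.84, 3.28 and 2.58 in FLT-Sham, 3.33, 3.51, 3.40 and 2.76 in G-Surgery and 3.1, 2.72 and 2.56 in FLT-Surgery. The groups overlapped at C1qb, and its SD was 1.10 in G-Sham and 0.34 in G-Surgery. C1qa was above background on FLT-Sham replicate 9 (2.57) and G-Surgery replicates 1 (3.03) and 5 (2.73) and on no other array. Over the 15 arrays r was 0.539 between C1qa and C1qc, 0.0389 between C1qb and C1qc and 0.0344 between C1qa and C1qb.

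The genes whose log2 ratio followed the mean of the 3 C1q genes most closely were Ralb (r = 0.915), Cerk (0.91), Lsp1 (0.906), Cd52 (0.902) and Fes (0.896), among 4495 genes detected on all 15 arrays. Lsp1 encodes an actin-binding protein of leukocytes, Cd52 a surface peptide of leukocytes and Fes a kinase of myeloid cells. These correlations share arrays, reference and groups and describe the 15 arrays only.

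The comparison of G-Surgery with G-Sham asks what the bone defect and its filling do on Earth. C1qc and Cd14 rose. With a cut-off of at least 2-fold and a limma p of at most 0.01, as in the methods of the study and without adjustment, 2.59% of the 17675 probes tested were called, 368 higher and 90 lower. Of the 15 macrophage probes 12 were tested, being well above background on at least 3 of the arrays compared (8 of the 10 genes), and 2 of these were past the cut-off, both higher. C1qc was higher by 4.01 on the log2 scale (SE 0.92, 95% interval 1.91 to 6.12, limma adjusted p = 0.258). Cd14 was higher by 1.29 (SE 0.31, interval 0.58 to 2.0, limma adjusted p = 0.271). Both genes were above background on 1 of 4 G-Sham arrays and on all 4 G-Surgery arrays. Neither adjusted p passed 0.05, and over all probes 2 did. Within slides 1 and 2 C1qc was higher by 3.08 and 5.97 and Cd14 by 0.59 and 1.91. C1qc was past the cut-off in 10 of 11 other ways of processing and not with normexp (1.48), and Cd14 in 8 of 11, not with a second loess step, normexp or the slide as a block.

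Cd68 and Csf1r A_55_P2025078 were not past the cut-off in that comparison. Their differences were 0.68 (SE 0.22, limma adjusted p = 0.362) and 0.82 (SE 0.24, limma adjusted p = 0.344), both below 2-fold, and neither pair of groups overlapped. Within slides 1 and 2 Cd68 differed by 0.47 and 0.79 and Csf1r A_55_P2025078 by 0.44 and 1.32. Among the 12 tested probes 4 did not overlap between G-Surgery and G-Sham, all higher in G-Surgery, against 6.86% of all probes tested that did not overlap in either direction. Mrc1, which failed the filter, was the fifth. For Adgre1 the difference was 2.14 (SE 0.78, limma adjusted p = 0.384) at A_55_P2144386 and 0.87 (SE 0.36, limma adjusted p = 0.434) at A_55_P2018934. It passed the filter through G-Surgery alone. Because no G-Sham array measured it, the measured signal gives at least 2.66-fold and at least 1.69-fold more in G-Surgery at these probes.

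The other tested probes were C1qb (0.66, SE 0.52), Lyz2 (0.87, SE 1.08), Itgam A_55_P1977929 (0.39), Itgam A_55_P1977934 (−0.32, SE 0.52), Csf1r A_52_P602091 (0.30) and Csf1r A_55_P2025073 (−0.16, SE 0.30). The median over the 12 probes was 0.75, with 10 above 0, while the median over all probes was 0.14, or −0.08 with a second loess step, under which the median over the 12 probes was 0.49 with 9 above 0. With normexp these medians were closer, at 0.15 over the 12 probes and −0.03 over all probes. Limma p was at most 0.05 without adjustment for 6 of the 12 probes.

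**Figure D3:**
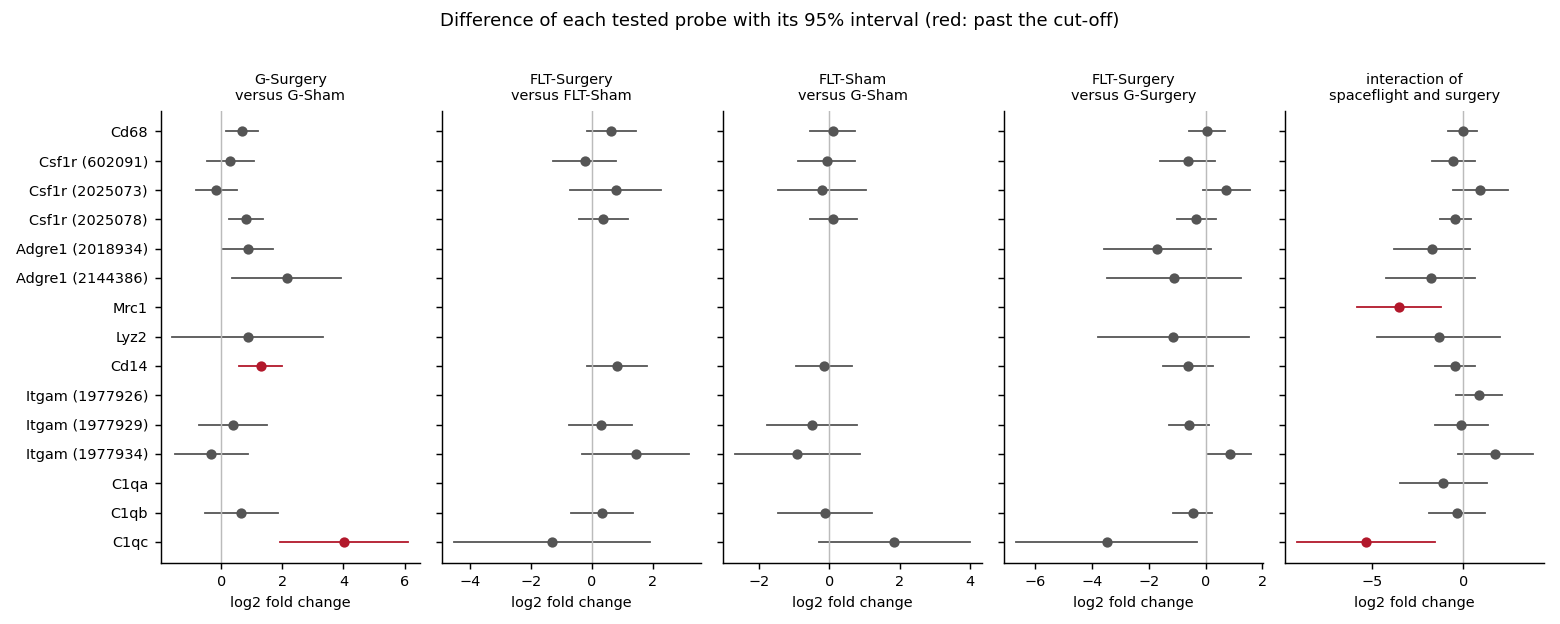
Log2 difference with its 95% interval for every macrophage-gene probe that passed the filter, in the 4 comparisons and their interaction; red marks a difference past the cut-off. C1qc (4.01) and Cd14 (1.29) are past it in G-Surgery versus G-Sham, and Mrc1 (−3.51) and C1qc (−5.34) in the interaction.

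Genes related to the 10 were also measured. Of 131 genes in 9 lists of phagocyte functions, none of them among the 10, 77 were measured in G-Surgery versus G-Sham, 15 were past the cut-off and higher (19.5%, against 2.59% of all probes tested called in either direction), 0 were past it and lower, and 65 lay above 0 with a median of 0.56 against 0.14 over all probes. Itgax, Ccl4 and H2-DMb1 among the 15 passed the filter on dim signal through G-Surgery alone, where they were higher, so these counts describe the measured genes only. In the list of macrophage receptors and phagocytosis 3 of 11 measured genes rose (median 1.16), and in the list of lysosomal genes 2 of 16 (median 0.39). Of the other complement genes 5 of 14 rose (median 0.92), and of the MHC class II genes 3 of 6 (median 2.69). In the list of the CSF1 axis and myeloid transcription factors 1 of 9 rose (median 0.75), as did 1 of 7 products of alternatively activated macrophages (0.31) and 1 of 5 inflammatory products (0.14). Among genes of monocyte recruitment (6 measured, median 0.42) and of lipopolysaccharide sensing (4 measured, median 0.33, or −0.08 with normexp) none was past the cut-off, and none was lower in any of the 9 lists.

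Trem2, the lipid-sensing receptor of phagocytic macrophages, was above background on all 15 arrays. Its log2 ratios were −1.75, −1.28, −2.39 and −1.71 in G-Sham and 2.35, 2.39, 1.80 and 0.64 in G-Surgery. FLT-Sham arrays read −2.62, −2.39, −1.08 and −1.86 and FLT-Surgery arrays 1.65, 0.19 and 0.03. All 7 surgery arrays were above 0 and all 8 sham arrays were below −1. The difference on the ground was 3.58 (SE 0.44, limma adjusted p = 0.0891), with 2.88 and 4.12 within slides 1 and 2, and it was past the cut-off in all 12 other settings and with any 1 array left out.

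The MHC class II genes present antigen on macrophages, dendritic cells and B cells. H2-DMb1, a chain of the peptide-loading complex, was not above background on any G-Sham array and read 2.54, 3.01, 2.08 and 1.36 in G-Surgery. It rose by 4.01 (SE 0.37, limma adjusted p = 0.0407), at least 11.8-fold on the measured signal, and by 3.91 and 4.63 within slides 1 and 2. H2-Ab1 rose by 3.55 (SE 0.94, limma adjusted p = 0.313) and H2-Aa by 2.30 (SE 0.56, limma adjusted p = 0.281), and neither overlapped between the groups. Within slides 1 and 2 the differences were 2.73 and 5.47 for H2-Ab1 and 1.33 and 3.73 for H2-Aa. C4b, the complement component that C1q-bound protease cleaves, rose by 2.83 (SE 0.66, limma adjusted p = 0.264), from −1.60, 0.72, 0.25 and 1.34 to 3.61, 3.55, 2.99 and 1.88, and by 2.11 and 3.68 within slides 1 and 2.

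Among the other genes that rose, Itgax, the CD11c chain, was higher by 3.68 (at least 4.65-fold), Ccl4, a chemokine of activated macrophages, by 4.44 (at least 11-fold), and Lilrb4a, an inhibitory receptor of myeloid cells, by 2.53. Ctsb and Ctss, lysosomal proteases, were higher by 1.69 and 2.38, the latter past the cut-off in 3 of 8 fits that left out 1 array (1.91 to 2.79). G-Surgery replicate 5 was the lowest of its group for each of these 5 genes as well as for Trem2, H2-DMb1, C4b and C1qc.

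Markers of other cells were read on the same arrays. Ptprc (CD45) was above background on 13 of 15 arrays and Laptm5 on 11, with Cd53 on none. The summed Cy5 of the pan-leukocyte markers was 15780 to 28243 in G-Sham and 30677 to 41510 in G-Surgery, and of these genes Laptm5 rose by 3.75 (SE 0.61, limma adjusted p = 0.16) and Cd52 by 2.08 (SE 0.39, limma adjusted p = 0.183). Neutrophil markers were detected throughout (S100a9 and Ngp on 15 arrays, S100a8 on 12), none of 11 measured was past the cut-off (median −0.26), and their summed Cy5 was 191229 to 316335 in G-Sham and 150051 to 286528 in G-Surgery. Of osteoclast markers, which derive from the same lineage (Acp5 above background on 15 arrays, Ctsk on 12, Mmp9 on 1), 1 of 8 rose, Tnfrsf11a by 1.11, with a median of 0.67. Dendritic cell markers (4 measured, Zbtb46 on 9 arrays, Flt3 on 5, Xcr1 on none) had a median of −0.06 with none past the cut-off.

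B cell markers (3 measured; Cd79b on 10 arrays, Cd79a on 1) had a median of −0.64 and T cell markers (6 measured; Cd3e on 15, Cd3d on 1, Cd3g on none) of 0.47, with none past the cut-off. Among the tissue lists 1 of 5 fibroblast genes rose (Col3a1 by 2.22, median 1.85) and 1 of 9 osteoblast genes (Ibsp by 3.1, median −0.15). None was past the cut-off among endothelial (median 0.85), muscle (−0.33), adipocyte (−0.86) or erythroid (−1.01) genes. The fibroblast, endothelial, osteoclast, T cell and pan-leukocyte lists thus had medians above that of all probes (0.14), as the macrophage genes did, and their part in the result was not tested.

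**Figure D4:**
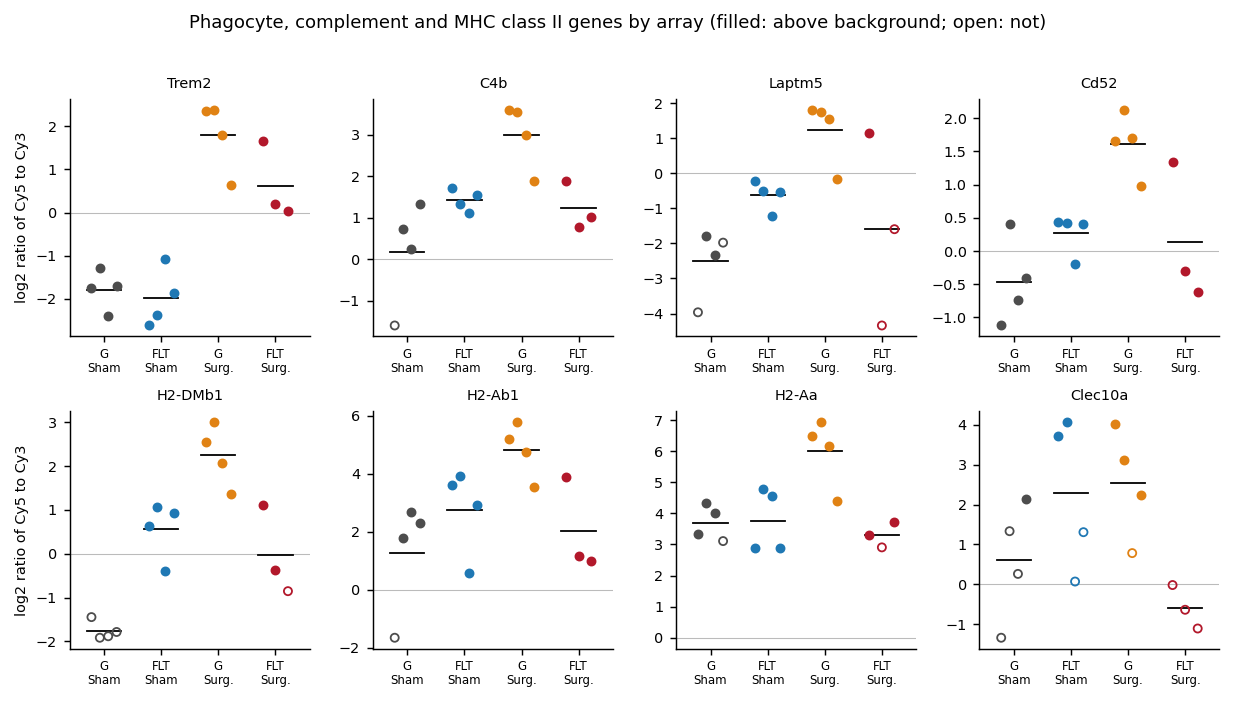
Log2 ratio on each array, by group, of 8 genes named by rule from the phagocyte and leukocyte lists, with the line at the group mean. Trem2 is above 0 on all 7 surgery arrays and below −1 on all 8 sham arrays, while H2-Aa, H2-Ab1, H2-DMb1, C4b and Clec10a are lower in FLT-Surgery than in G-Surgery.

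The comparison of FLT-Surgery with G-Surgery asks how flight changed the callus, and it shares its G-Surgery arrays with the comparison above. No macrophage probe was past the cut-off, among 12 tested, where 3.14% of all 16548 probes were called. The smallest limma adjusted p of the 12 was 0.29, and 2 had a limma p of at most 0.05 without adjustment. C1qc was lower by a log2 difference of −3.48 (SE 1.37, interval −6.68 to −0.28, limma adjusted p = 0.291), with −4.60 and −1.74 within slides 1 and 2. Its value was past the cut-off with the slide as a block, with array weights and without FLT-Surgery replicate 1, and not in the other settings.

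Itgam A_55_P1977934 had a difference of 0.85 (SE 0.33, limma adjusted p = 0.29). It was the only tested macrophage probe whose groups did not overlap, against 13.6% of all probes tested. It was past the cut-off in Cy5 alone and with normexp. Mrc1, which was not tested, did not overlap in the other direction. Cd68 differed by 0.04 (SE 0.27, interval −0.58 to 0.67), so a change of 2-fold in either direction lay outside its interval. Csf1r A_55_P2025078 differed by −0.33, A_55_P2025073 by 0.72 and A_52_P602091 by −0.63, the last at least 1.41-fold lower on the measured signal.

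The remaining differences were −1.70 and −1.11 for Adgre1 at A_55_P2018934 and A_55_P2144386 (the latter at least 1.57-fold lower on the measured signal), −1.14 for Lyz2, −0.62 for Cd14 and −0.46 for C1qb. The median over the 12 probes was −0.61, with 9 below 0, but the median of all probes was −0.20, and with a second loess step these medians were 0.04 (6 above 0 and 6 below) and 0.29. Among the 9, Csf1r A_52_P602091 and Adgre1 A_55_P2144386 passed the filter through G-Surgery alone, where they were higher. The second loess step raised both the median over the 12 probes and that over all probes. Under both settings the median over the 12 probes was below that over all probes.

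FLT-Surgery replicate 1 stood apart from replicates 3 and 5 in these genes. It was the highest of the 3 arrays for 8 of the 12 tested macrophage probes (66.7%) and for 59 of 78 phagocyte-list genes (75.6%), against 43.7% of all probes. It lay on slide 2 and the others on slide 1, so array and slide cannot be told apart. Without it 2052 probes were called in place of 519, and Adgre1 and C1qc were past the cut-off and lower.

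Of 78 genes of the 9 phagocyte lists measured in this comparison 0 were past the cut-off and higher and 5 were past it and lower (6.41%, against 3.14% of all probes called, 173 higher and 346 lower), with 63 below 0 and a median of −0.59 against −0.20 over all probes. Among the 5, Clec10a passed the filter through G-Surgery alone, where it was higher, so these counts and medians describe the measured genes only. MHC class II held 3 of the 5, among 7 measured (median −1.99). H2-Aa read 3.30, 2.91 and 3.73 in FLT-Surgery against 6.48, 6.95, 6.15 and 4.40 in G-Surgery and fell by 2.68 (SE 0.60, limma adjusted p = 0.252). H2-DMb1 read 1.11, −0.37 and −0.85 in FLT-Surgery and fell by 2.29 (SE 0.57, limma adjusted p = 0.273), and H2-Ab1 fell by 2.81 (SE 0.82, limma adjusted p = 0.28).

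Within slides 1 and 2 the differences were −2.36 and −3.64 for H2-Aa and −2.61 and −1.90 for H2-DMb1. H2-Aa was past the cut-off in 9 of 11 other settings and 6 of 7 fits that left out an array, H2-DMb1 in 8 of 11 and 3 of 7, and H2-Ab1 in 7 of 12 and 2 of 7. Clec10a, a lectin of alternatively activated macrophages and dendritic cells, fell by 3.13 (SE 0.73, limma adjusted p = 0.26), at least 2.1-fold on the measured signal, and C4b by 1.78 (SE 0.50, limma adjusted p = 0.28). The groups overlapped at H2-Ab1 and C4b, which fall outside the naming rule and were named after their values were seen. Trem2 differed by −1.17 (limma adjusted p = 0.335).

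A second loess step moved the median of all probes from −0.20 to 0.29 here, and some list medians changed sign with it. The part of the shift over all probes in these changes was not tested. The medians of the other lists were −0.88 for the CSF1 axis, −0.16 for recruitment (0.16 with a second loess step), −0.87 for receptors and phagocytosis, −0.54 for the lysosome (0.08 with normexp) and −0.37 for lipopolysaccharide sensing (0.46 with a second loess step). They were −0.71 for the other complement genes, −0.68 for alternatively activated products (0.34 with a second loess step) and 0.08 for inflammatory products. None of the marker lists of other cells had a gene past the cut-off. Their medians included −0.23 for pan-leukocyte, −1.13 for neutrophil, −0.68 for osteoclast, −1.76 for muscle, −2.27 for endothelial and −1.59 for fibroblast genes, so lower medians were also found in lists of other cells, whose part was not tested.

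The comparison of FLT-Sham with G-Sham asks about flight in bone without a defect, and it shares G-Sham with the first comparison. No macrophage probe was past the cut-off among 9 tested (6 genes), where 2% of 19739 probes were called. None of the 9 had a limma p of at most 0.05 without adjustment, and none was without overlap, against 4.6% of all probes. The largest difference was that of C1qc, 1.85 (SE 0.95, interval −0.31 to 4.02, limma adjusted p = 0.522), with 2.56 and 1.95 within slides 1 and 2. It was past the cut-off with array weights and without FLT-Sham replicate 8, whose log2 ratio was 0.24.

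Cd68 differed by 0.09, Csf1r by 0.11, −0.21 and −0.08 at A_55_P2025078, A_55_P2025073 and A_52_P602091, Cd14 by −0.15 and C1qb by −0.13. Itgam differed by −0.50 at A_55_P1977929 and −0.92 at A_55_P1977934. The median over the 9 probes was −0.13 against 0.24 over all probes, or −0.83 against −0.13 with a second loess step. With normexp it was −0.08 against −0.08, so no gap remained there. Across the phagocyte lists 4 of 87 genes rose (4.6%, against 2% of all probes called, 353 higher and 41 lower) and 0 fell, and all 4 (Spic, Lipa, H2-DMb1 and Zeb2) passed the filter through FLT-Sham alone, where they were higher. Spic, the transcription factor of red-pulp and marrow macrophages that handle iron, rose by 3.27 (SE 0.75, limma adjusted p = 0.404, at least 3.56-fold), H2-DMb1 by 2.32 (SE 0.39, limma adjusted p = 0.281, at least 3.64-fold) and Lipa, the lysosomal acid lipase, by 1.31 (limma adjusted p = 0.484, at least 1.76-fold).

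Spic read 0.94, 1.12, −1.46 and 2.18 in FLT-Sham and −3.36, −2.60, −2.63 and −1.70 in G-Sham, with no overlap. The fourth gene was Zeb2 (2.26), whose groups overlapped and which was named after its value was seen. List medians were 1.15 for the CSF1 axis (2 of 13 rose), 1.25 for other complement genes, 0.78 for MHC class II, 0.42 for the lysosome (−0.29 with normexp), 0.35 for recruitment (−0.11 with a second loess step) and between −0.48 and −0.01 for the other 4 lists, of which receptors and phagocytosis had 0.15 in Cy5 alone. Laptm5 (1.89) of the pan-leukocyte list, Ibsp (2.35) of the osteoblast list and Plin1 (2.50) and Cidec (4.23) of the adipocyte list also rose. Plin1 passed the filter through FLT-Sham alone, where it was higher, by at least 2.21-fold on the measured signal. Neutrophil markers had a median of 1.06 with none past the cut-off, and their summed Cy5 was 444332 to 597434 in FLT-Sham against 191229 to 316335 in G-Sham.

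The comparison of FLT-Surgery with FLT-Sham asks what the defect does in flight. No macrophage probe was past the cut-off among 9 tested, where 6.65% of 19136 probes were called, and the smallest limma adjusted p was 0.256. Cd68 differed by 0.64 (SE 0.35), close to its 0.68 on the ground, and it was the only tested macrophage probe without overlap, against 14.7% of all probes. Of the probes not tested, Itgam A_55_P1977926 was higher and Mrc1 lower in FLT-Surgery without overlap. Cd14 differed by 0.82 (SE 0.42), Csf1r by 0.38, 0.78 and −0.24 at A_55_P2025078, A_55_P2025073 and A_52_P602091, Itgam A_55_P1977934 by 1.45 and C1qb by 0.34.

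C1qc differed by −1.32 (SE 1.39), with −4.08 and 2.28 within slides 1 and 2, which are of opposite sign, and it was past the cut-off and lower with array weights. The median over the 9 probes was 0.38, with 7 above 0, against −0.28 over all probes, or 1.41 against 0.35 with a second loess step. With normexp it was 0.08 against 0.08, so the members did not stand apart from all probes there. Csf1r A_52_P602091, which was below 0, passed the filter through FLT-Sham alone, where it was higher. Of 85 phagocyte-list genes 3 rose and 3 fell (7.06%), a share near the 6.65% of all probes, and the median of −0.27 was near the −0.28 of all probes. Over all probes the calls were split otherwise, with 81 higher and 1191 lower. The phagocyte-list genes that rose were Trem2 by 2.61 (SE 0.56, limma adjusted p = 0.135), Itgb2, the partner chain of CD11b and CD11c, by 1.49 (SE 0.44, limma adjusted p = 0.15) and Lrp1, a scavenger receptor, by 1.35 (SE 0.35, limma adjusted p = 0.144).

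Cfd, which adipocytes make in quantity, fell by 8.34 on the log2 scale (limma adjusted p = 0.0397), and Itga4, an integrin of blood-borne cells, fell by 3.02, at least 3.32-fold on the measured signal. Marker genes of other tissues fell with them, 5 of 7 adipocyte, 4 of 12 neutrophil, 4 of 5 erythroid, 4 of 12 muscle and 2 of 8 osteoblast genes. Among these Plin1 and Cidec (adipocyte), Slc4a1 (erythroid) and Alpl (osteoblast) passed the filter through FLT-Sham alone, where they were higher, as did Itga4. The counts and medians therefore describe the measured genes only. The list medians, in log2, were −4.17 for adipocyte, −2.50 for neutrophil, −3.35 for erythroid and −2.94 for muscle genes. A second loess step moved the median of all probes from −0.28 to 0.35, and with this step or with normexp the sign of some list medians changed. These were MHC class II (−0.53, or 0.38 with a second loess step), the lysosome (−0.14, or 0.69 with normexp), lipopolysaccharide sensing (−0.62, or 0.26 with normexp) and recruitment (−0.30, or 0.26 with a second loess step). The CSF1 axis had a median of −1.10, other complement genes of −0.82, receptors and phagocytosis of 0.07, alternatively activated products of 0.14 and inflammatory products of 0.76.

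**Figure D5:**
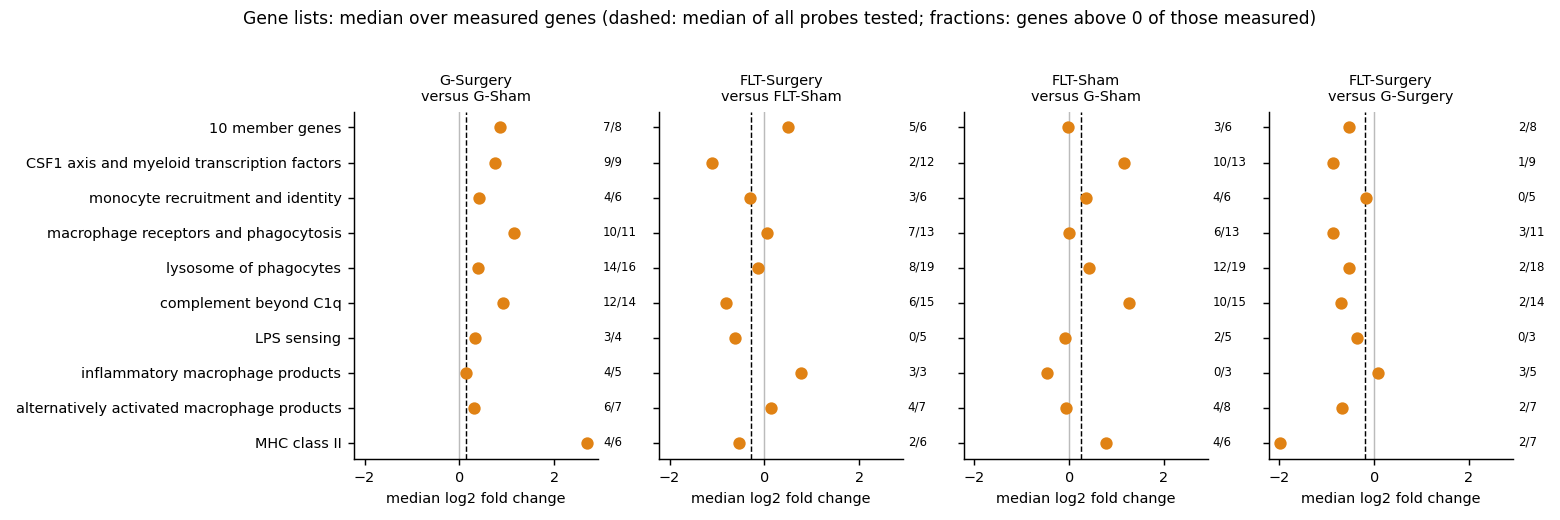
Median log2 difference of the macrophage genes and of 9 lists of related genes in the 4 comparisons, with the number of genes above 0 over the number measured; the dashed line is the median of all probes tested. In G-Surgery versus G-Sham the MHC class II genes have the highest of these medians (2.69), and in FLT-Surgery versus G-Surgery the lowest (−1.99).

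The interaction tests whether the effect of surgery differed between flight and ground, with all 15 arrays in the fit. Of 21777 probes 5.33% were called. All 15 macrophage probes passed the filter in it, 12 were below 0, and 2 were past the cut-off, both lower. The surgery effect on C1qc was lower in flight by a log2 difference of −5.34 (SE 1.76, limma adjusted p = 0.184), from 4.01 on the ground to −1.32 in flight. That on Mrc1 was lower by −3.51 (SE 1.07, limma adjusted p = 0.172), although Mrc1 was above background on only 3 arrays, on none in G-Sham or FLT-Surgery.

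Both depended on the processing and on single arrays. C1qc was past the cut-off in 5 of 9 other settings and 4 of 15 fits that left out an array, and Mrc1 in 6 of 9 and 8 of 12, and with the slide as a block neither was past it. Mrc1 could not be tested in the 3 fits that left out an array on which it was above background (FLT-Sham replicates 4 and 6 and G-Surgery replicate 3). C1qc was past it without G-Sham replicate 5, FLT-Sham replicate 8, G-Surgery replicate 5 or FLT-Surgery replicate 1, and its values ranged from −6.95 to −4.45 when 1 array was left out. Mrc1 was not past it without G-Sham replicate 4 or any FLT-Surgery array, with a range of −4.07 to −3.41. The interaction did not pass the cut-off for Cd14 (−0.47), Csf1r A_55_P2025078 (−0.44) or Cd68 (−0.04), so the larger number of macrophage probes past it on the ground is not by itself a difference between ground and flight. The median of the 15 probes was −0.47 against −0.37 over all probes, and with a second loess step 0.39 against 0.49.

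Among 92 phagocyte-list genes 6 were past the cut-off in the interaction and lower (6.52%) and 0 higher, a share near the 5.33% of all probes, of which 1082 were lower and 78 higher. H2-DMb1 differed by −4.61 (SE 0.70, limma adjusted p = 0.0805) and C4b by −3.04 (SE 0.83, limma adjusted p = 0.171), both past the cut-off in all 9 other settings and all 15 fits that left out an array. Clec10a differed by −4.83 (limma adjusted p = 0.172), past the cut-off in 7 of 9 other settings and 14 of 15 fits that left out an array, and H2-Aa by −2.75 (limma adjusted p = 0.176), past it in 5 of 9 and 6 of 15. The leukocyte genes Laptm5 (−4.72) and Cd52 (−2.21) were also past the cut-off and lower. Trem2 was not, at −0.97 (SE 0.73, limma adjusted p = 0.449).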

How the data were processed

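RNA from the femoral midshaft of 15 mice was hybridised to 2-colour Agilent arrays, and the authors deposited 1 scanner file per array, made with Agilent Feature Extraction 12.0 according to the submitters' processing notes. The deposited intensity values are processed signals of both channels, background-subtracted and dye-normalized by that software, and the deposited log10 ratios are Cy5 over Cy3. The series table deposited by the authors holds the same ratios and differed from the scanner files by at most 0.005 on the log10 scale. Log10 ratios were converted to log2 from the deposited values with no second normalization, control spots were left out, and spots of a probe were averaged. Between 15.9% and 32.3% of ratios per array were exactly 0, which the software writes where neither channel is usable.

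In each comparison, fitted on its own arrays, and in the interaction, fitted on all 15, a probe was kept if 3 or more of those arrays read it well above background in Cy5. The fits used limma (3.58.1, R 4.3.3), feature outliers being set to missing. The cut-off, a fold of at least 2 and p of at most 0.01 without adjustment, followed the study's methods, and Benjamini-Hochberg adjusted p-values were computed over all probes tested. The p-values measure the spread between arrays, and precision is limited by how few there are. A fold given as "at least" compares, after quantile normalization between arrays, the brighter group with the lowest signal well above background. The script was tested on simulated data. Named from 21 lists (258 genes, the probe of a gene brightest in Cy5 representing it) were at most the 2 largest changes per list, comparison and direction without overlap between groups. Single values of some list genes are not reported here. The genes and lists were chosen with earlier results of these data known. The alternatives were a second loess step, median centring, Cy5 alone scaled to the 75th percentile, normexp with offset 50 on median signals, the series table, other filters, all arrays, slide and replicate number as blocks, array weights and leaving out each array. Ratios of exactly 0 as missing was chosen after seeing the data.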

Additional observations from a re-analysis of the deposited data

Results flagged for a closer look

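Among 45 combinations of a probe and a group of 4 arrays, 3 held an array far from the rest by Dixon's 95% critical value, where 2.25 are given by chance at 1 in 20. Cd68 read −0.60 on FLT-Sham replicate 8 against −1.11 to −1.02 on the rest of that group. Adgre1 A_55_P2144386 read −4.85 on G-Sham replicate 4 against −3.22 to −2.93, and Itgam A_55_P1977926 read 1.62 on G-Sham replicate 3 against 0.66 to 0.77. The interaction term of spaceflight and surgery was past the cut-off for Mrc1 (−3.51 on the log2 scale, limma adjusted p = 0.172) and for C1qc (−5.34, limma adjusted p = 0.184). With the slide as a block neither was past it, and Mrc1 was above background on only 3 of 15 arrays and on none in G-Sham or FLT-Surgery, so its difference rests mostly on values at background.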

How the results depend on the processing

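Of the single-probe values of the macrophage genes, 1006 kept direction and side of the cut-off, 26 fell below it, 12 passed it, and 67 changed sign, all of them values not past the cut-off as reported. Weak signal over background limited the values of Mrc1, C1qa, Adgre1 and Lyz2. Probes past the cut-off, with macrophage genes past it where their number moved, were as follows.

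With a second loess step they were 247 in FLT-Sham versus G-Sham (394 as reported) and 1190 in FLT-Surgery versus G-Surgery (519), and 1 macrophage gene in place of 2 was past it in G-Surgery versus G-Sham and 1 in the interaction. With normexp they were 33, 208, 180 in G-Surgery versus G-Sham (458 as reported), 293 in FLT-Surgery versus FLT-Sham (1272) and 321 in the interaction (1160), and 0 macrophage genes were past it in G-Surgery versus G-Sham and the interaction but 1 in FLT-Surgery versus G-Surgery. Cy5 alone gave 1 macrophage gene in FLT-Surgery versus G-Surgery and 1 in the interaction. Without the filter on dim probes 683 were called in FLT-Sham versus G-Sham, and 1 macrophage gene in the interaction. With both channels detected on every array they were 55, 254, 585 and 568 in FLT-Sham versus G-Sham, G-Surgery versus G-Sham, FLT-Surgery versus FLT-Sham and the interaction, with 0 macrophage genes in G-Surgery versus G-Sham and the interaction. A fit on all 15 arrays gave 597 in FLT-Sham versus G-Sham and 2593 in FLT-Surgery versus FLT-Sham.

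With the slide as a block they were 227, 1290, 210 and 550 in FLT-Sham versus G-Sham, FLT-Surgery versus G-Surgery, G-Surgery versus G-Sham and FLT-Surgery versus FLT-Sham, with 1, 1 and 0 macrophage genes in FLT-Surgery versus G-Surgery, G-Surgery versus G-Sham and the interaction. Array weights gave 3858, 1704, 8507 and 5709 in FLT-Sham versus G-Sham, FLT-Surgery versus G-Surgery, FLT-Surgery versus FLT-Sham and the interaction, with 1, 2 and 1 macrophage genes in the first 3.

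Leaving out 1 array gave 94 to 2071 probes in FLT-Sham versus G-Sham (0 to 1 macrophage genes), 245 to 2052 in FLT-Surgery versus G-Surgery (0 to 2), 240 to 747 in G-Surgery versus G-Sham (2 to 3), 297 to 4911 in FLT-Surgery versus FLT-Sham (0) and 542 to 3772 in the interaction (0 to 2). Every array left out of FLT-Surgery versus FLT-Sham moved its count by over 1.5 times. So did G-Sham replicates 1 and 5 and all FLT-Sham arrays in FLT-Sham versus G-Sham, G-Surgery replicates 3 and 4 and FLT-Surgery replicate 1 in FLT-Surgery versus G-Surgery, and G-Sham replicate 1 and G-Surgery replicates 1, 3 and 4 in G-Surgery versus G-Sham. In the interaction these were G-Sham replicate 1, FLT-Sham replicates 4, 6 and 8, G-Surgery replicate 3 and all FLT-Surgery arrays. The highest counts came without FLT-Sham replicate 8 (2071, 4911 and 3772), without FLT-Surgery replicate 1 (2052) and without G-Sham replicate 1 (747). The third macrophage gene, Adgre1, was past the cut-off without G-Surgery replicate 5 (673 probes).

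The share of calls that were higher moved from 33.3% to 94.8% with a second loess step, 74.9% in Cy5 alone and 82.7% with normexp in FLT-Surgery versus G-Surgery. It moved from 6.37% to 51.7%, 21.4% and 33.1% in FLT-Surgery versus FLT-Sham, from 89.6% to 65.2%, 75.1% and 30.3% in FLT-Sham versus G-Sham, from 80.3% to 56.9%, 57.9% and 40% in G-Surgery versus G-Sham, and from 6.72% to 74%, 30.6% and 53.9% in the interaction. The cause was not tested.

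Replicate numbers are not known to pair mice. Deviations of arrays with the same number correlated at 0.343, −0.0249, −0.0638 and −0.126 in G-Surgery and G-Sham and at −0.415, −0.178 and 0.216 in FLT-Surgery and G-Surgery, and only 1 array correlated best with its own number. The replicate block gave 389 probes (2 macrophage genes) in G-Surgery versus G-Sham and 215 (0) in FLT-Surgery versus G-Surgery. For FLT-Sham versus G-Sham and FLT-Surgery versus FLT-Sham no paired analysis was possible because these groups share 1 and 0 numbers.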
